A study of Mus musculus with 6 samples.

Results

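Described here are 3 genes of iron and calcium absorption, S100g, Slc40a1 and Cybrd1, in the intestinal epithelium of mice given the mucus-feeding gut bacterium Akkermansia muciniphila (Akk). They were taken by gene symbol from the deposited table of 1386 genes and loci, in which each symbol occurs once, so 3 of 1386 entries are described. Wild-type mice on regular chow were gavaged from the age of 8 weeks, for 7 weeks, with 400000000 Akk a day or with PBS, the carrier. Each group has 3 libraries, numbered 1 to 3, made from total RNA of intestinal epithelial cells. The sources used here give neither the strain nor the sex of the mice, and they do not say whether a library came from 1 mouse or from pooled mice, so p-values measure only the spread between these libraries, which may be technical. The sample labels name no gut segment, while the series title names the jejunum. The 3 genes were chosen as a sign of segment because all are known as duodenal genes.

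Absorptive cells of the duodenum take up most dietary iron, and they also take up calcium by active transport. Ferric iron is first reduced at the brush border by Cybrd1 (duodenal cytochrome b), enters through the transporter Slc11a2, and leaves the cell on the blood side through Slc40a1 (ferroportin), the only known cellular iron exporter, which the liver hormone hepcidin removes from the membrane. Calcium that enters through the channel Trpv6 is bound and carried across the cell by S100g, a small cytosolic calcium-binding protein whose gene responds to vitamin D. Iron deficiency and the hypoxia-inducible transcription factors are known to raise Cybrd1 and Slc40a1 in this tissue.

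S100g (ENSMUSG00000040808) lies at chrX:162961992-162964599 on the minus strand of GRCm38. Slc40a1 (ENSMUSG00000025993) lies at chr1:45908068-45926523, minus strand, and Cybrd1 (ENSMUSG00000027015) at chr2:71117923-71142926, plus strand. These are GENCODE M21 gene coordinates. The promoter windows of 2 of the 3 genes were found among RefSeq's (GRCm38.p6), and are shown because the 3 genes varied together between the libraries (below) while the sequences differ in kind. Each holds 250 bases before and 50 bases from RefSeq's start of the gene on, from 5′ to 3′ on the gene's strand. That start is base 162964599 for S100g, as in GENCODE, and base 71118054 for Cybrd1, inside the GENCODE gene, whose first base is 71117923. The windows are printed with CG dinucleotides and the TATAAA motif in capitals.
S100g, chrX:162964550-162964849, minus strand: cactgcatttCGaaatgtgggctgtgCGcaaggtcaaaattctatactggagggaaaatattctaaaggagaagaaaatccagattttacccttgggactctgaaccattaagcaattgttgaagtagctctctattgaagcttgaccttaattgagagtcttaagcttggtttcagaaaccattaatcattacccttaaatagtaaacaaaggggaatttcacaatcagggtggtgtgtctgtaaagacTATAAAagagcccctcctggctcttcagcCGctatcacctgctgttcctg
Cybrd1, chr2:71117804-71118103, plus strand: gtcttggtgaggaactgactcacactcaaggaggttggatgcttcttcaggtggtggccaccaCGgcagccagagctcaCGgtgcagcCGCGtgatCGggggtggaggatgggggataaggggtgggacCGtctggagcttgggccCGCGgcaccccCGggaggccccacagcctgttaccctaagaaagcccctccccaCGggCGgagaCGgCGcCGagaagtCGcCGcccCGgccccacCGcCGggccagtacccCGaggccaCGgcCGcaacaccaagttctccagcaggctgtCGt
The S100g window held 3 CG dinucleotides at a GC content of 41.0%, and the Cybrd1 window 23 at 68.3%, against medians of 7 and 52.7% over 32851 such windows. Searched on both strands were TATAAA (present in 13.6% of all windows) and TTTAT (the core bound by CDX factors, 40.0%). Also searched were AGATAA (bound by GATA factors, 11.2%) and ACGTG (a form of the core bound by hypoxia-inducible factors, 19.6%). The S100g window held TATAAA at bases 251 to 256, which begins at RefSeq's start of the gene and does not lie before it. The match to TTTAT on the other strand, at bases 252 to 256, lies inside this TATAAA. Any TATAAA holds such a match, so it is not a separate site. None of these letters was found in the Cybrd1 window, and neither AGATAA nor ACGTG in the S100g window. This says only that these letters are not in these windows. GCGTG, the other form of the hypoxia core, was not searched for. The Cybrd1 window as printed holds it, and its share of all windows was not counted.

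The table holds only entries that passed the authors' thresholds on these 6 libraries (largest deposited p-value 0.0498, smallest fold 1.50), of which 346 were higher in Akk and 1040 lower. That the 3 genes are listed as higher was therefore fixed by this choice, and a test on the same libraries is not independent evidence. The sequencing depth implied by the counts and FPKM was 23613380 to 29440186 fragments a library. Its absolute scale rests on GENCODE exon lengths and may be off, while the ratios between libraries do not depend on them. Among the libraries, PBS replicate 2 stood apart, with the highest value in 1022 of the 1040 genes listed as lower, so that results are also given without it. Akk replicate 3 had the highest value in 51 of the 346 genes listed as higher, fewer than Akk replicates 1 (139) and 2 (152).

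All 3 genes had their highest level in Akk replicate 3 and the next highest in Akk replicate 2, while Akk replicate 1 lay among or below the PBS libraries. Levels are in FPKM, the authors' fragments scaled to transcript length and sequencing depth. S100g, the calcium carrier, had 5.58, 12.9 and 97.7 FPKM in Akk replicates 1 to 3 and 9.56, 11.1 and 3.62 in PBS replicates 1 to 3. Akk replicate 3 was thus 8.81-fold above the highest PBS library, whereas Akk replicate 1 lay below PBS replicates 1 and 2. The underlying counts were 113, 245 and 1733 in Akk and 172, 180 and 69 in PBS. For Akk replicate 3 the exact 95% Poisson interval of the count, which covers counting error only, was 1652 to 1817. The mean was 38.7 ± 51.2 FPKM in Akk and 8.09 ± 3.95 in PBS (SD, n = 3 each), a spread within Akk larger than the difference of the means.

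Slc40a1, the iron exporter, had 1.35, 4.79 and 17.9 FPKM in Akk replicates 1 to 3 and 3.26, 3.02 and 1.56 in PBS replicates 1 to 3. Its lowest library of all 6 was Akk replicate 1, and Akk replicate 3 was 5.49-fold above the highest PBS library. Counts were 165, 541 and 2119 in Akk against 353, 320 and 198 in PBS, so that 57.3% of all its counts came from Akk replicate 3 (S100g 69.0%, Cybrd1 55.6%). The mean was 8.01 ± 8.72 FPKM in Akk and 2.61 ± 0.918 in PBS (SD, n = 3).

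Cybrd1, the brush border ferric reductase, was measured at a low level in all libraries. It had 0.0405, 0.246 and 0.805 FPKM in Akk replicates 1 to 3 and 0.0860, 0.212 and 0.0382 in PBS replicates 1 to 3. The counts behind these were 10, 52 and 159 in Akk and 18, 39 and 8 in PBS. At this depth Akk replicate 1 and PBS replicate 3 could not be told apart, since the exact 95% Poisson intervals of their counts were 4.80 to 18.4 and 3.45 to 15.8, and Akk replicate 2 (38.8 to 68.2) overlapped PBS replicate 2 (27.7 to 53.3). Akk replicate 3, at 135 to 186 counts, lay above every other library. The mean was 0.364 ± 0.396 FPKM in Akk and 0.112 ± 0.0899 in PBS (SD, n = 3).

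**Figure D1:**
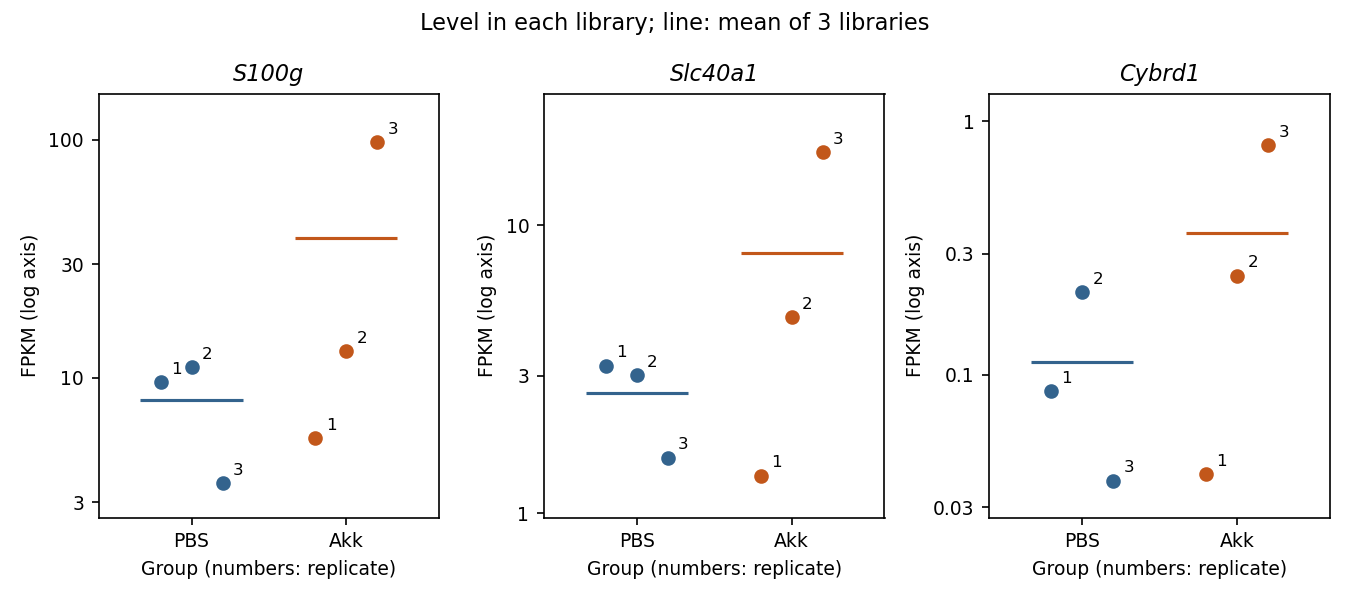
FPKM (log axis) of S100g, Slc40a1 and Cybrd1 in the 3 PBS and 3 Akk libraries, with the replicate number beside each point and the group mean as a line. Akk replicate 3 is the highest point in each panel (97.7, 17.9 and 0.805 FPKM), and the other Akk libraries lie at or near the PBS range.

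The groups overlapped for each of the 3 genes: 0 of 3 had all Akk libraries above all PBS libraries, which 9.38% of the 1386 listed genes and 37.6% of the 346 listed as higher had. With edgeR's quasi-likelihood test over the whole table and Benjamini-Hochberg adjustment, the log2 fold change of counts, Akk over PBS, was 2.25 (SE 1.12, adjusted p = 0.104) for S100g. It was 1.64 (SE 0.96, adjusted p = 0.150) for Slc40a1 and 1.67 (SE 0.998, adjusted p = 0.159) for Cybrd1. None of the 3 passed an adjusted 0.05, nor did any other listed gene (0.0% of 1386). An unadjusted p under 0.05 was reached by 0 of the 3 and by 791 of the 1386 (57.1%), of which 38 (2.74%) were higher in Akk. DESeq2 called S100g (log2 fold change 2.25, adjusted p = 0.0273) but neither Slc40a1 (adjusted p = 0.0597) nor Cybrd1 (adjusted p = 0.186), where it called 786 of the 1124 genes to which it gave an adjusted p (69.9%), 74 of them higher (6.58%), and gave none to the other 262. An exact two-sided permutation test of log2(FPKM + 0.1) gave p = 0.4, 0.5 and 0.4 for S100g, Slc40a1 and Cybrd1, where 3 against 3 libraries cannot go below 0.1. On that scale the mean differences were 1.39, 0.96 and 0.82, smaller than the log2 fold changes of counts. The authors' deposited table gives log2 fold changes of 1.38, 1.19 and 1.05, with p-values of 0.00796, 0.0201 and 0.0445.

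The size of each difference rested on Akk replicate 3. Without it the log2 fold change fell to 0.19 (SE 0.84, edgeR adjusted p = 0.832) for S100g, to 0.14 (SE 0.90, adjusted p = 0.882) for Slc40a1 and to 0.34 (SE 0.90, adjusted p = 0.723) for Cybrd1. The mean FPKM of Akk replicates 1 and 2 was 9.25 for S100g, 3.07 for Slc40a1 and 0.143 for Cybrd1, or 1.14, 1.17 and 1.28 times the PBS mean. With all libraries the ratios of mean FPKM were 4.79, 3.06 and 3.25. Without PBS replicate 2 the log2 fold change of Cybrd1 became 2.50 (SE 1.16, adjusted p = 0.106), and S100g and Slc40a1 had 2.54 and 1.78. Scaling by TMM factors computed on the listed genes shifted the median of all log2 fold changes from -1.85 to -0.21, and the 3 genes then had 3.41, 2.70 and 3.15, again none past the threshold.

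**Figure D2:**
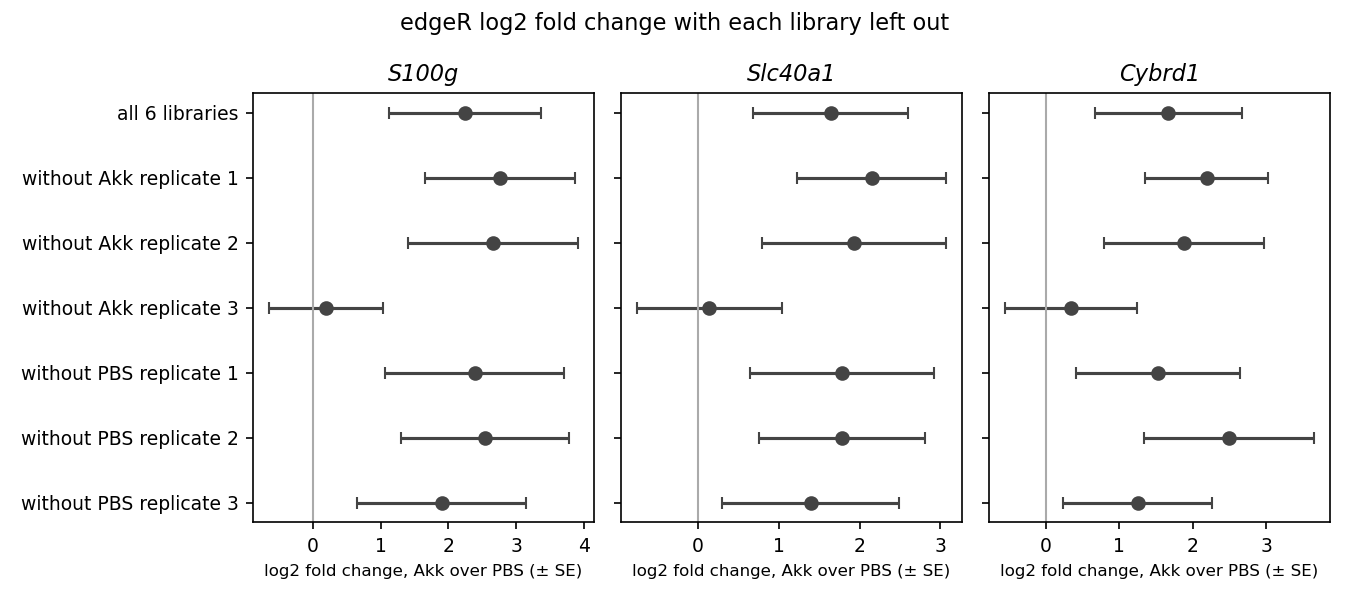
edgeR log2 fold change (Akk over PBS) with its SE for each gene, from all 6 libraries and with each library left out in turn. Only without Akk replicate 3 does the estimate come near 0 (0.19, 0.14 and 0.34), and in the other fits shown it lies between 1.25 and 2.76.

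In this the 3 genes differed in size from most genes listed as higher, whose median log2 fold change was 0.74 with all libraries and 0.86 without Akk replicate 3. The loss was 2.06 for S100g, the largest of the 346, 1.50 for Slc40a1 (1 gene lost more) and 1.32 for Cybrd1 (3 lost more). In FPKM, Akk replicate 3 exceeded the second highest library 7.56-fold for S100g, 3.73-fold for Slc40a1 and 3.27-fold for Cybrd1. Over the 346 genes the median ratio of the highest to the second highest library was 1.14. Akk replicate 3 was at least 3-fold above the second library for 5 genes of the table, namely the 3 described here, the predicted gene Gm37240 and Fosb, an immediate early transcription factor (the limit of 3 was set after the values were seen). The ranges within the Akk group were likewise wide, 17.5-fold for S100g, 13.2-fold for Slc40a1 and 19.9-fold for Cybrd1. On the log2(FPKM + 0.1) scale only 2, 5 and 17 of the 346 genes had a wider range. Within PBS the ranges were 3.07-fold, 2.08-fold and 5.55-fold. These counts are a description, since the genes were chosen with the earlier results known.

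**Figure D3:**
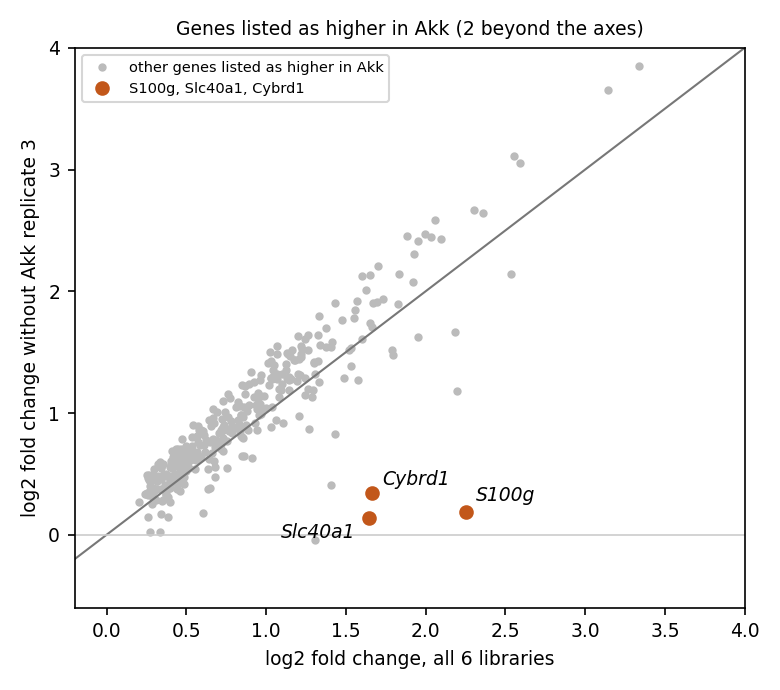
log2 fold change of each gene listed as higher in Akk, from all 6 libraries (x axis) and without Akk replicate 3 (y axis), with the line of equal values; 2 genes lie beyond the axes. Most genes lie near or above the line, and S100g, Slc40a1 and Cybrd1 lie far below it at 0.19, 0.14 and 0.34.

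The 3 genes varied together. S100g and Cybrd1 had the same order of libraries, from high to low Akk replicate 3, Akk replicate 2, PBS replicate 2, PBS replicate 1, Akk replicate 1 and PBS replicate 3. Slc40a1 differed in the order of PBS replicates 1 and 2, whose FPKM of 3.26 and 3.02 are close, and in having Akk replicate 1 below PBS replicate 3. The FPKM ratio of S100g to Slc40a1 stayed between 2.31 (PBS replicate 3) and 5.46 (Akk replicate 3), while S100g itself ranged from 3.62 to 97.7. Likeness was measured as the root mean square difference of log2(FPKM + 0.1) over the 6 libraries, each gene centred on its mean, against the named genes with a mean of at least 1 FPKM. Of 1156 such genes the closest to S100g was Slc40a1 (0.42, where the median gene had 1.95), followed by Fosb (0.85), Gp1bb, a platelet glycoprotein subunit (0.98), Gm37240 (1.05) and Gm28040 (1.05). Slc40a1 was in turn closest to S100g, then to Fosb (0.67), Gp1bb (0.71), Ptger4, a prostaglandin receptor (0.75), and Card9, an adaptor of innate immunity (0.76). Cybrd1, itself below that level, was closest to Slc40a1 (0.38, median 1.44), then to S100a14 (0.56), Card9 (0.57), Ptger4 (0.57) and Clic4 (0.58), and S100g stood in eighth place (0.63). The pseudocount narrows the range of Cybrd1, which brings it nearer to genes that vary little. The compared genes all passed the authors' thresholds, in a table with 1040 entries listed as lower and 346 as higher. The medians thus mostly cover genes listed as lower. Since the 3 genes are listed as higher with Akk replicate 3 far above the rest, their closeness is a description and not independent evidence of a link.

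Between the genes S100g had the highest and Cybrd1 the lowest FPKM in each of the 6 libraries. FPKM depends on the transcript length the authors used, which is not given. Counts, FPKM and the recovered depth imply medians of 688 bases for S100g, 4316 for Slc40a1 and 7714 for Cybrd1. That depth was itself scaled with GENCODE M21 exon lengths, so these medians hold only up to a common factor. GENCODE M21 gives 480, 9000 and 5339 exon bases. With the GENCODE lengths and the recovered depth, the mean level over the 6 libraries would be 33.4, 2.61 and 0.343, in the same order. Only the order is read from these values, since an error in the scale of the depth would shift all 3 by the same factor. S100g lies inside Ctps2, a CTP synthase gene of the opposite strand, and the strand setting of the counting is not given in the sources used here. Of its 480 exon bases 0 fall in Ctps2 exons, and Ctps2 had 1.27, 1.13 and 1.02 FPKM in Akk replicates 1 to 3 and 1.59, 6.64 and 1.67 in PBS replicates 1 to 3, so that Akk replicate 3 was its lowest library.

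Of 34 genes of iron absorption and handling, 7 were listed: 3 were higher in Akk and 4 lower. Their median log2 fold change was -2.42, against -1.85 over all listed genes, of which 1040 of 1386 were lower. With 4 of 7 lower, that median is the value of Tfrc alone, which was -1.07 without PBS replicate 2. It therefore does not set the iron genes apart from the table. None of the 7 passed edgeR's adjusted threshold with all libraries. Beside Slc40a1 and Cybrd1 the third gene listed as higher was Ncoa4, the receptor that delivers ferritin for degradation. It too was highest in Akk replicate 3, with 28.6, 25.7 and 45.5 FPKM in Akk replicates 1 to 3 against 27.7, 22.0 and 21.7 in PBS. Its log2 fold change was 0.39 (SE 0.41, edgeR adjusted p = 0.402). Tfrc, the transferrin receptor that takes up iron from the blood side, had 6.29, 6.11 and 8.91 FPKM in Akk and 15.6, 86.2 and 15.0 in PBS. Slc39a8, a metal ion importer, had 0.27, 0.29 and 0.22 FPKM in Akk and 0.98, 5.12 and 0.61 in PBS. These 2 passed the threshold without PBS replicate 2 (log2 fold changes -1.07, SE 0.23, and -1.52, SE 0.33, both with edgeR adjusted p = 0.041), where 19.5% of all listed genes and 23.7% of those listed as lower did. The metalloreductases Steap2 and Steap3, of another family than Cybrd1, were also listed as lower, both highest in PBS replicate 2 (3.49 and 6.58 FPKM). The importer Slc11a2, the ferroxidase Heph, the ferritin genes Fth1 and Ftl1 and hepcidin (Hamp) were not listed, so the brush border import step between Cybrd1 and Slc40a1 could not be examined.

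Of 20 genes of calcium absorption and vitamin D response, 3 were listed: S100g and Slc34a2 were higher in Akk, Cldn2 lower. Slc34a2, the phosphate transporter of the brush border, ran against S100g within the Akk group. It had 133, 102 and 19.1 FPKM in Akk replicates 1 to 3, and 7.09, 27.1 and 29.8 in PBS replicates 1 to 3. Akk replicate 3, the highest library for S100g, was thus the lowest Akk library for Slc34a2 and lay within its PBS range. The log2 fold change of Slc34a2 was 1.998 (SE 0.80, edgeR adjusted p = 0.086), and 2.47 without Akk replicate 3, where that of S100g was 0.19. Cldn2, a pore-forming claudin that lets cations pass between cells, had 1.27, 1.99 and 1.51 FPKM in Akk and 3.68, 46.5 and 3.36 in PBS, and passed without PBS replicate 2 (log2 fold change -1.15, SE 0.25, edgeR adjusted p = 0.041). The channel Trpv6, the vitamin D receptor gene Vdr, its target Cyp24a1 and the calcium pump gene Atp2b1 were not listed.

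As a sign of gut segment, the 3 genes were set beside fixed lists for each segment. Of 17 duodenal genes 4 were listed, all as higher and all highest in Akk replicate 3. Of these 4, S100g, Slc40a1 and Cybrd1 were chosen with earlier results known, so the count largely restates that choice. Among all genes listed as higher, 14.7% were highest in Akk replicate 3. With all libraries, 0 of the 4 passed edgeR's adjusted threshold. The fourth was Gip, the hormone of K cells of the upper small intestine, which did not share the spread of the other 3. Gip was highest in Akk replicate 3 by only 1.01-fold over the next library. It had 63.8, 67.2 and 67.7 FPKM in Akk replicates 1 to 3 and 47.9, 26.7 and 45.9 in PBS replicates 1 to 3, without overlap (log2 fold change 0.72, SE 0.49, edgeR adjusted p = 0.208). Pdx1, Onecut2 and Gata4, transcription factors of the proximal intestine, were not listed, nor was any of 5 Brunner gland and 8 gastric genes. Of 12 jejunal genes Apoa4, an apolipoprotein of chylomicrons, and Ada, adenosine deaminase, were listed, both as higher. Apoa4 had 4527, 5057 and 3660 FPKM in Akk replicates 1 to 3 and 1811, 467 and 3101 in PBS replicates 1 to 3. Its lowest Akk value, in replicate 3, thus lay above every PBS library. Ada, also a gene of the upper villus, had 101, 326 and 492 FPKM in Akk replicates 1 to 3 and 39.5, 23.1 and 139.8 in PBS replicates 1 to 3, and so had the order of S100g within Akk but not within PBS, where replicate 3 was its highest and the lowest of S100g.

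Of 12 ileal genes only Gcg, the proglucagon gene, was listed, with 3.31, 2.39 and 2.11 FPKM in Akk and 5.47, 11.1 and 5.07 in PBS. Of 11 colonic genes 3 were listed. Car4, a carbonic anhydrase, had 88.4, 119 and 171 FPKM in Akk replicates 1 to 3 and 265, 330 and 302 in PBS, so that Akk replicate 3, the highest in the duodenal genes, was also the highest Akk library for Car4. The others were Aqp4, a water channel listed as lower, and Mettl7b, listed as higher. In Akk replicates 1 to 3 Aqp4 had 0.16, 0.06 and 0.13 FPKM and Mettl7b 19.4, 22.7 and 14.2, so that no common order of the Akk libraries was seen. Without PBS replicate 2, Gcg and Car4, both listed as lower, passed (edgeR adjusted p = 0.044 for both), as did 23.7% of the genes listed as lower. None of the 4 duodenal genes passed, and 6.94% of the genes listed as higher did, so these counts do not set the segments apart. Since only genes that differed between the groups were listed, the segment of a library cannot be read from the level of genes that are missing here.

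**Figure D4:**
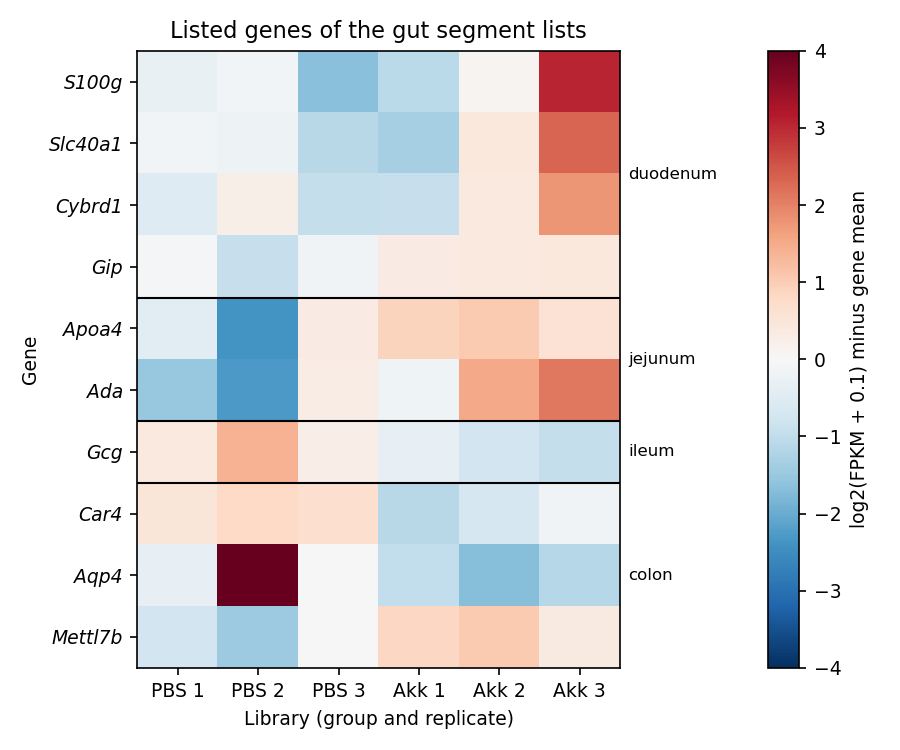
log2(FPKM + 0.1) minus the gene's mean over 6 libraries (colour) for the listed genes of the duodenal, jejunal, ileal and colonic lists, by library. S100g, Slc40a1 and Cybrd1 are darkest in Akk replicate 3, while Gip is even across the Akk libraries (63.8 to 67.7 FPKM).

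Genes of other cell types also varied between these libraries, and since the samples are bulk RNA, fewer cells of a type and less RNA per cell cannot be told apart. Of 10 genes of the upper villus, 3 were listed (Ada, Slc28a2 and Nt5e), each higher in Akk, none of them at 0 in any library. Their summed level was 121, 376 and 546 FPKM in Akk replicates 1 to 3 and 48.8, 27.1 and 165 in PBS replicates 1 to 3, of which Ada alone gave 492 in Akk replicate 3. Slc28a2, a nucleoside transporter, had 42.0 and 46.0 FPKM in Akk replicates 2 and 3, and Nt5e, an ectonucleotidase, 8.32 and 7.68, so that these 2 did not set Akk replicate 3 apart from Akk replicate 2 as the 3 absorption genes did. The part of villus genes in the levels of the 3 was not tested. Of the crypt genes, 19 of 20 proliferation genes, 10 of 14 Paneth cell genes and 5 of 12 stem cell genes were listed, all as lower and all highest in PBS replicate 2, as were 98.3% of all genes listed as lower. In that library S100g, Slc40a1 and Cybrd1 (11.1, 3.02 and 0.212 FPKM) were neither highest nor lowest. In Akk replicate 3 the summed levels of the proliferation, Paneth cell and stem cell genes were 39.8, 196 and 6.59 FPKM, beside those of Akk replicates 1 (28.0, 168 and 6.06) and 2 (32.9, 176 and 8.48). Goblet cell genes (2 of 10 listed) and enteroendocrine genes (3 of 13) had summed levels of 2094 to 2996 and 81.5 to 85.0 FPKM in Akk, and 1246 to 2062 and 44.6 to 62.7 in PBS. The enteroendocrine sum is mostly Gip, while Gcg of the same list was listed as lower (2.60 ± 0.630 FPKM in Akk, 7.22 ± 3.39 in PBS, SD, n = 3). Of 15 acinar genes of the pancreas, which drains into the duodenum, Clps and Zg16 (also a goblet cell gene) were listed. Clps, colipase, had 2.45, 2.42 and 2.27 FPKM in Akk replicates 1 to 3, 1.24 and 1.56 in PBS replicates 1 and 3 and 66.1 in PBS replicate 2, so it did not follow the 3 absorption genes. No gene was listed of the lists for T cells, B and plasma cells, macrophages, stromal cells and erythroid cells, which says nothing of their levels.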

How the data were processed

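RNA of 3 Akk and 3 PBS libraries was analysed from the authors' deposited table of 1386 entries, which gives whole-number read counts and FPKM per library, per the file headers. For each entry it also holds the authors' p-value and log2 fold change, without saying whether the p-value is adjusted. The build was mm10, per the submitters' processing notes. Which aligner, counter, annotation and strand setting the authors used is not given in the sources used here. Left out were 2 lines without values. Depth was computed from counts divided by FPKM over 560 genes with at least 200 counts in each library, and GENCODE M21 exon lengths (548 genes). Counts were tested with edgeR 4.0.16 (R 4.3.3, quasi-likelihood, filterByExpr, recovered depth as library size, no replicate term, Benjamini-Hochberg over all entries at 0.05), after a test on simulated data. The simulated libraries varied less than these and included no outlying library, so that test says nothing about power or error here. Alternatives were TMM and RLE factors computed on the listed genes, a filter at 1 CPM in 3 samples, no filter, DESeq2 1.42.0, limma 3.58.1 on log2(FPKM + 0.1) and log2(FPKM + 1), the replicate number as a block, and each library left out. Leaving out Akk replicate 3 and PBS replicate 2 together was added after seeing the data. The 3 genes, the lists of iron, calcium, segment and cell type genes and the naming rule were chosen with earlier results of these data known; a member of the lists is not reported here. The rule named the 3 genes, each listed iron, calcium and segment gene, up to 3 genes of each cell type list with the smallest p, the 5 genes closest to each of the 3, and the 10 genes with the largest ratio of highest to second highest library among those highest in Akk replicate 3. Ctps2 and the ratio limit of 3 were chosen after the values were seen.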

Additional observations from a re-analysis of the deposited data

How the results depend on the processing

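The direction of S100g, Slc40a1 and Cybrd1 (higher in Akk) was kept in all alternatives run, and the side of the edgeR threshold in all but DESeq2, which called S100g (2.25). Leaving out 1 library each gave log2 fold changes of 0.19 to 2.76 for S100g, 0.14 to 2.15 for Slc40a1 and 0.34 to 2.50 for Cybrd1, with the lowest always without Akk replicate 3. With RLE factors they were 3.42, 2.71 and 3.19, with limma on log2(FPKM + 1) 1.31, 0.85 and 0.26, and without both Akk replicate 3 and PBS replicate 2 0.48, 0.28 and 1.17. The filters removed no gene and say nothing about stability. With the replicate block the values were 1.08, 0.84 and 0.98 (adjusted p = 0.429, 0.497 and 0.310), none past the threshold. The deviations of same-numbered libraries had correlations of 0.24, -0.08 and -0.30, and only PBS replicate 1 of the 6 libraries was closest to its own number, so the numbers were not taken as pairs. The count of genes past the threshold, 0 with edgeR, was 786 with DESeq2, 1 with limma on log2(FPKM + 0.1), 6 with the replicate block, 0 to 734 with 1 library left out (for PBS replicates 1, 2 and 3 left out: 734, 270 and 732), and 645 without Akk replicate 3 and PBS replicate 2; the cause was not tested. Depth limits Cybrd1 most, with 8 to 159 counts a library.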

Other observations

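Named genes (mean of at least 1 FPKM) highest in Akk replicate 3 were ranked by how far it stood above the second library. The first 10, which include S100g and Slc40a1, were S100g, Gm37240, Slc40a1, Fosb, Gp1bb, Gprc5a, Ptger4, Ncoa4, Saa1 and Gm28040. Gprc5a, an orphan receptor of epithelial cells, had 11.1, 24.8 and 45.9 FPKM in Akk replicates 1 to 3 and 12.1, 2.87 and 15.4 in PBS replicates 1 to 3. Ptger4, a receptor of prostaglandin E, had 6.18, 9.51 and 15.9 in Akk and 8.05, 6.29 and 6.45 in PBS. Fosb had 0.82, 0.97 and 3.46 in Akk and 1.10, 0.38 and 0.47 in PBS, and Gp1bb 0.20, 2.98 and 6.52 in Akk and 0.71, 0.49 and 0.91 in PBS. For Gprc5a, Ptger4, Fosb and Gp1bb, as for the 3 absorption genes, Akk replicate 1 lay within or below the PBS range. Saa1, an acute-phase protein, and Gm28040 differed from these in that no Akk library overlapped the PBS range (4.72 to 9.53 against 0.62 to 3.60 FPKM, and 1.70 to 4.56 against 0.47 to 0.61). With edgeR, 0 of these 10 genes passed the adjusted threshold with all 6 libraries.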
